A study of Mus musculus with 24 samples.

Results

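The genes described here are 10 heat shock proteins and chaperones, taken by gene name from the 54733 genes measured in all 24 liver libraries. Hspa1b and Hspa8 encode the stress-inducible and the constitutive cytosolic HSP70, and Hsph1 an HSP110 that exchanges nucleotide on HSP70. Dnajb1 and Dnaja1 encode J-domain co-chaperones of HSP70, and Hsp90aa1 and Hsp90ab1 the inducible and the constitutive cytosolic HSP90. Hspe1 and Hspd1 encode the mitochondrial HSP10 and HSP60, which fold proteins together, and Hspb1 encodes the small heat shock protein HSP27. Liver poly(A) RNA of male C57BL/6 mice in constant darkness was sequenced at 6 circadian times, every 4 h from CT2 to CT22. The groups were wild type (WT) and ΔRRE, which carries on both alleles a CRISPR-Cas9 deletion of a pair of REV-ERB/ROR response elements (RREs) of the clock gene Bmal1, with 2 libraries per genotype and time point. The ΔRRE animals came from 1 mutant line unless the study said otherwise, and no age was stated for the sequenced livers. Tissues taken on the same schedule for other RNA measurements came from male mice of 8 to 24 weeks. The values are FPKM, fragments normalised to transcript length and to the depth of the library, and the libraries summed to between 554170 and 624746 FPKM.

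Chaperones bind unfolded protein chains and keep them from aggregating. Their genes are induced by heat shock factor 1 (HSF1), which binds heat shock elements, arrays of the units GAA and TTC in alternating orientation. In the liver many of these mRNAs are known to cycle daily, at the time when nocturnal mice are warm and feeding, and cold-inducible RNA-binding protein genes such as Cirbp are known to cycle in the opposite phase. The comparison of WT with ΔRRE asks whether such a rhythm needs the transcriptional rhythm of Bmal1.

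The labels were first checked on Bmal1 itself, which the tables name Arntl. In WT the FPKM of Arntl was 12.6 and 13.2 at CT2, 2.42 and 2.86 at CT6, 0.195 and 0.0919 at CT10, 2.21 and 1.15 at CT14, 5.96 and 5.76 at CT18, and 10.3 and 11.2 at CT22. In ΔRRE all 12 values of Arntl lay between 2.1 and 4.21 FPKM. The WT libraries thus covered a far wider range than the ΔRRE libraries. Hepatocyte marker genes summed to between 34229 and 52059 FPKM in the libraries, with Alb the most abundant at a mean of 27420 FPKM, so the tissue label fitted its markers. The libraries ΔRRE CT10 replicate 1 and ΔRRE CT14 replicate 1 stood apart by the highest sums of acute-phase genes and of blood cell markers, so main results are also given without them.

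Heat shock elements were searched in the RefSeq promoter windows (GRCm38.p6, 250 bases before to 50 after a start site), which held 7 of the 10 genes. Here 2 adjacent units were written GAANNTTC or TTCNNGAA and 3 adjacent units GAANNTTCNNGAA or TTCNNGAANNTTC. Each pair of spellings covers both strands, and every run of 3 units holds runs of 2. At least 2 units were found in 6 of the 7 genes, against 17.0% of the 27025 genes in the table, and at least 3 units in Hspd1, Hspe1 and Hsph1, against 0.662% of all genes. Dnajb1 held no such run in its windows, which says only that these letters are not there. The sequences are shown because these genes are the ones whose daily course is compared below, and capitals mark the matched units. Hspa1b, on chromosome 17, and Hspb1, on chromosome 5, are shown with their 250 bases upstream, which touch no annotated exon.
Hspa1b promoter, chr17:34959239-34959488, minus strand: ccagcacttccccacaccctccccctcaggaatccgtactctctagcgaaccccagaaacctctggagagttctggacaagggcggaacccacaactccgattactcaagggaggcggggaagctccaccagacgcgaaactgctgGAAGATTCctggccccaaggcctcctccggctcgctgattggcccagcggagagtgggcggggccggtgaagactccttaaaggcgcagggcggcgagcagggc
Hspb1 promoter, chr5:135887669-135887918, plus strand: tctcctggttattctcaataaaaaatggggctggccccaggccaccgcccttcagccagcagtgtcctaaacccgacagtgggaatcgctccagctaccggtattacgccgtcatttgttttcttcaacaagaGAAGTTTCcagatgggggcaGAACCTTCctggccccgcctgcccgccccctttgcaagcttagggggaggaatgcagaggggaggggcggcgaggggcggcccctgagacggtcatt
For the other genes at most 30 bases around a match are shown, since the matches lie within annotated exons of Hspd1, Hsph1 or Dnaja1. Hsph1 held a run of 2 units before its start site and a separate run of 3 units after it.
Hspe1 and Hspd1, chr1:55088053-55088082, strand of Hspe1: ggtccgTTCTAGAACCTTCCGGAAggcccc
Hsph1, 2 units, chr5:149636351-149636380, minus strand: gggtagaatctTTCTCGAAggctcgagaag
Hsph1, 3 units, chr5:149636280-149636308, minus strand: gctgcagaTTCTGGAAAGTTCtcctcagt
Dnaja1, chr4:40722333-40722362, plus strand: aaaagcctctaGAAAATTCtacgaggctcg
Hspe1 and Hspd1 are transcribed away from each other and overlap by 112 bp at their starts, and the run, which holds 4 units, lies within Hspd1 and before the start of Hspe1, so it counts in the windows of both genes. The match of Hspa1b began 104 bases before its start site.

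Per transcript length, the genes differed widely in abundance. The mean over the 24 libraries was 368 FPKM for Hsp90ab1, 345 for Hspa8, 212 for Hspd1, 168 for Hspe1, 88.7 for Dnaja1, 61.3 for Hsp90aa1, 33.7 for Hspb1, 19.5 for Hsph1, 11.4 for Hspa1b and 7.68 for Dnajb1. Of the 9 pairs of neighbours in this order, 5 kept it in at least 21 of 24 libraries, for example Hspd1 above Hspe1 in 23. Dnaja1 exceeded Hsp90aa1 in 19 of 24 libraries, Hspa8 exceeded Hspd1 in 18, Hsp90ab1 exceeded Hspa8 in 15 and Hspa1b exceeded Dnajb1 in only 9, so the order of these 4 pairs was not fixed. In WT the 10 genes together rose from 1033 ± 66.5 FPKM (SD, n = 2) at CT10 to 1762 ± 341 at CT14. In ΔRRE they rose from 898 ± 26.8 FPKM (SD, n = 2) at CT10 to 1904 ± 687 at CT14. This is a description of bulk liver, in which fewer cells of a type and less RNA per cell cannot be told apart.

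**Figure D1:**
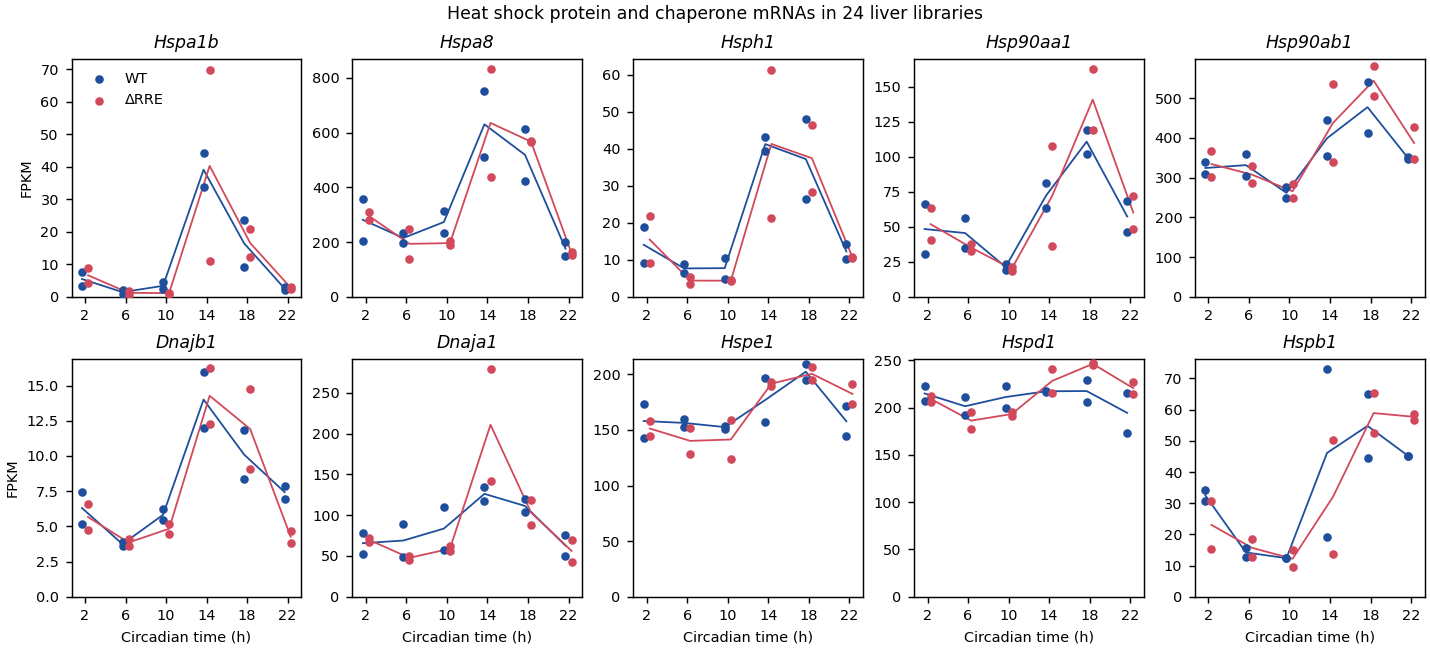
FPKM (vertical axis, linear, from 0) of each gene against circadian time in hours, with 1 point per library and lines through the means of the 2 libraries of WT (blue) and ΔRRE (red). In both genotypes every gene has its highest mean at CT14 or CT18, whereas the relative height of that peak ranges from 1.12-fold (Hspd1, WT) to 35.7-fold (Hspa1b, ΔRRE) over the lowest mean.

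Hspa1b, the inducible HSP70, had the widest daily range of the 10 genes. In WT its FPKM was 3.41 and 7.51 at CT2, 0.919 and 1.94 at CT6, 2.24 and 4.48 at CT10, 44.3 and 33.9 at CT14, 9.25 and 23.6 at CT18, and 3.07 and 1.96 at CT22. In ΔRRE it was 4.32 and 8.9 at CT2, 1.8 and 0.626 at CT6, 0.996 and 1.26 at CT10, 10.9 and 69.7 at CT14, 12.2 and 20.9 at CT18, and 2.5 and 3.04 at CT22. All 8 libraries of CT14 and CT18 were above all 16 of the other times, and the genotypes overlapped at every time except CT10. The highest mean was 27.4 times the lowest in WT and 35.7 times in ΔRRE. Its near-identical neighbour Hspa1a, which encodes a nearly identical HSP70 and lies 9951 bp away, followed it at a median of 0.239 times its FPKM (0.173 to 0.596 over the 24 libraries). Reads of Hspa1a and Hspa1b may have been divided between them in the counting, so both levels are uncertain.

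Hspa8, the constitutive HSP70, changed less in ratio but far more in absolute level. In WT its FPKM was 205 and 357 at CT2, 233 and 197 at CT6, 234 and 312 at CT10, 751 and 509 at CT14, 425 and 613 at CT18, and 201 and 150.2 at CT22. In ΔRRE it was 280.3 and 310.1 at CT2, 249 and 138 at CT6, 188 and 205 at CT10, 437 and 834 at CT14, 569 and 565 at CT18, and 154 and 163 at CT22. Again all libraries of CT14 and CT18 lay above all others, and the ratio of highest to lowest mean was 3.58 in WT and 4.01 in ΔRRE. Hsph1, the HSP110, also had its highest mean at CT14 and had a larger ratio, 5.39 in WT and 9.52 in ΔRRE. Its FPKM in WT was 9.18 and 18.9 at CT2, 8.88 and 6.44 at CT6, 4.92 and 10.6 at CT10, 43.2 and 39.4 at CT14, 26.3 and 48.2 at CT18, and 14.3 and 10.2 at CT22. In ΔRRE, Hsph1 was at 8.99 and 21.9 at CT2, 5.33 and 3.41 at CT6, 4.19 and 4.49 at CT10, 21.3 and 61.4 at CT14, 28.4 and 46.5 at CT18, and 10.4 and 10.9 at CT22. Its libraries of CT14 and CT18 lay above all others except ΔRRE CT2 replicate 2, which at 21.9 FPKM was above ΔRRE CT14 replicate 1 at 21.3. The J-domain genes Dnajb1 and Dnaja1 both had their highest mean at CT14 in both genotypes. Dnajb1 reached 16.2 FPKM and was above 12 in all 4 libraries of CT14, and was between 3.57 and 4.13 in those of CT6. Dnaja1 had 1 library far above the rest, at 279.6 FPKM in ΔRRE at CT14, and its next highest value was 142.

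The HSP90 genes and Hspb1 had their highest mean at CT18 in both genotypes. Hsp90aa1 in WT was at 30.6 and 66.1 FPKM at CT2, 56.3 and 34.7 at CT6, 18.8 and 23.7 at CT10, 81.5 and 63.1 at CT14, 102 and 119 at CT18, and 46.3 and 68.3 at CT22. In ΔRRE it was at 40.4 and 63.3 FPKM at CT2, 32.7 and 37.5 at CT6, 18.4 and 21.5 at CT10, 36.5 and 108 at CT14, 119 and 163 at CT18, and 48.3 and 72.0 at CT22. Its lowest libraries were the 4 of CT10, which lay below all others in both genotypes. Hsp90ab1, the constitutive HSP90, likewise had its lowest mean at CT10, with a smaller ratio, 1.82 in WT and 2.05 in ΔRRE. Hspb1 stayed high until CT22: in WT it was at 30.6 and 34.4 FPKM at CT2, 15.8 and 12.7 at CT6, 12.4 and 12.3 at CT10, 73.1 and 19.2 at CT14, 44.4 and 65.2 at CT18, and 45.2 and 45.2 at CT22. In ΔRRE it was at 15.2 and 30.8 FPKM at CT2, 18.6 and 12.8 at CT6, 9.47 and 14.9 at CT10, 13.8 and 50.4 at CT14, 52.4 and 65.4 at CT18, and 56.8 and 58.6 at CT22. At CT14 the libraries of Hspb1 disagreed within each genotype, whereas at CT18 and CT22 all 8 were at or above 44.4 FPKM.

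The mitochondrial chaperonin genes moved little. Hspe1 ranged from 124 to 209 FPKM over all libraries, and its highest mean was 1.33 times the lowest in WT and 1.43 times in ΔRRE. Hspd1 in WT was at 223 and 207 FPKM at CT2, 211 and 192 at CT6, 223 and 199 at CT10, 218 and 217 at CT14, 206 and 229 at CT18, and 174 and 215 at CT22. In ΔRRE it was at 206 and 213 FPKM at CT2, 177 and 195 at CT6, 191 and 196 at CT10, 215 and 241 at CT14, 245 and 248 at CT18, and 215 and 227 at CT22. In WT the libraries of CT14 were above those of CT6 and CT22 and overlapped those of CT2, CT10 and CT18, and in ΔRRE the 4 libraries of CT6 and CT10 were below the other 8.

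Rhythms were tested by fitting a wave with a period of 24 h to log2(FPKM + 0.1) with limma, over the 11244 genes that averaged 1 FPKM or more, which include all 10 described here. P-values were adjusted by the Benjamini-Hochberg method over all genes tested, and a gene was called below 0.05. With the waves of both genotypes tested together over 24 libraries, 9 of the 10 genes were called, against 18.7% of all genes tested. The exception was Hspd1, with an adjusted p of 0.0541 in limma, and it was called without WT CT2 replicate 1, WT CT22 replicate 1 or ΔRRE CT22 replicate 1 (adjusted p down to 0.027). In WT alone 4 genes were called (Hspa1b, Hsph1, Dnajb1 and Hspb1), against 10.3% of all genes tested. In ΔRRE alone Hspe1 and Hspb1 were called, against 4.57% of all genes tested. The WT calls of Dnajb1 and Hspb1 and the ΔRRE call of Hspb1 held whichever library was left out. That of Hspa1b in WT held only without CT2 replicate 2, CT10 replicate 1 or CT22 replicate 2 (adjusted p up to 0.102 in limma), and that of Hsph1 only without these or CT22 replicate 1 (up to 0.0871). The ΔRRE call of Hspe1 was lost without either library of CT14 or CT18, CT2 replicate 1, CT6 replicate 2 or CT22 replicate 2 (up to 0.0822). Without a filter on low values, 0 of the 10 genes were called in WT and 0 in ΔRRE, beside 519 and 197 of all genes. Whether a gene was called in 1 genotype only is no test of a difference between them, which is given further on. By the looser criteria of the study's methods (a p under 0.3, a highest mean over 1.5 times the lowest, and no SD beyond 1.5 times their difference), used here with the limma p, 8 of the 10 were rhythmic in WT, against 37% of all genes tested, and 8 in ΔRRE, against 35.4%. Hspe1 and Hspd1 were the exceptions in both genotypes.

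Of the described genes, Dnaja1 had the earliest fitted peak of the shared wave and Hspb1 the latest. Peak times, with their standard errors, were CT15.2 ± 0.80 h for Dnaja1, CT15.5 ± 0.83 h for Hspa8, CT16.3 ± 0.57 h for Dnajb1, CT16.7 ± 0.77 h for Hspa1b and CT17.6 ± 0.65 h for Hsph1. Then followed Hspd1 at CT17.6 ± 1.35 h, Hspe1 at CT17.8 ± 0.74 h, Hsp90ab1 at CT18.5 ± 0.72 h, Hsp90aa1 at CT19.2 ± 0.68 h and Hspb1 at CT19.8 ± 0.48 h. Every neighbouring pair in this order was closer than its combined standard error, whereas the first and the last, Dnaja1 and Hspb1, were 4.61 h apart with a combined standard error of 0.929 h that ignores their shared libraries. All 9 called genes peaked between CT12 and CT20, against 24.3% of all genes called with the waves of both genotypes together. This window was chosen with earlier results of these data known, so the count is a description.

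The amplitude of the shared wave, which is the distance from its mean to its peak on the log2 scale, was 1.79 ± 0.36 (SE) for Hspa1b, with an adjusted p of 0.0168 in limma. This was the amplitude of rank 30 among 11244 genes. Hsph1 had an amplitude of 1.31 ± 0.22 and rank 93 (adjusted p of 0.00507 in limma), and Hspb1 of 1.15 ± 0.14 and rank 132 (adjusted p of 0.000252 in limma). The other amplitudes were 0.93 ± 0.16 for Hsp90aa1, 0.79 ± 0.12 for Dnajb1, 0.74 ± 0.16 for Hspa8, 0.64 ± 0.13 for Dnaja1, 0.36 ± 0.07 for Hsp90ab1, 0.23 ± 0.04 for Hspe1 and 0.10 ± 0.04 for Hspd1. The median of all 10 genes was 0.76, beside a median of 0.17 over all genes tested. The call of Hspa8 was the least stable: its adjusted p of 0.0321 in limma rose above 0.05, to at most 0.0659, when any 1 of 8 libraries was left out (WT CT2 replicate 1, both of WT CT14, WT CT18 replicate 2, ΔRRE CT6 replicate 2, ΔRRE CT14 replicate 2 and both of ΔRRE CT18). Without the 4 libraries of CT18 only 2 of the 10 genes were called (Dnajb1 and Hspb1), beside 1217 of all genes tested. Without those of CT6 only 5 were called, beside 1523, and without those of CT14 only 6, beside 1151. With all libraries these counts were 9 and 2107.

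**Figure D2:**
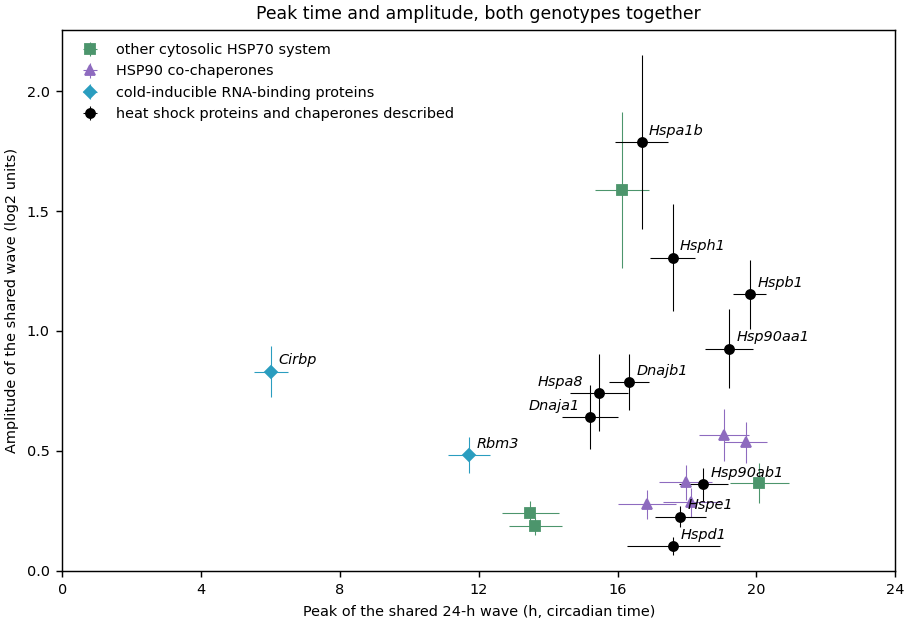
Peak of the shared wave in hours of circadian time (horizontal) against its amplitude in log2 units (vertical), with standard errors, for the 10 genes (black) and for the called genes among other HSP70-system genes (green squares), HSP90 co-chaperones (violet triangles) and cold-inducible RNA-binding protein genes (blue diamonds). The black points run from CT15.2 to CT19.8, and Cirbp sits at CT6.0.

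Counted directly, the 8 libraries of CT14 and CT18 were all above the 8 of CT6 and CT10 for 4 of the 10 genes (Hspa1b, Hspa8, Hsph1 and Dnajb1), against 1.18% of all genes tested. The times were chosen after the values were seen, so this is a description. The ratio of the means of these libraries was 15.8 for Hspa1b, 6.53 for Hsph1, 2.76 for Dnajb1 and 2.68 for Hspa8. In the other 6 genes the libraries overlapped, although the ratio was 3.53 for Hspb1 and 3.25 for Hsp90aa1.

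Besides the evening peak, Hspa1b, Hspa8 and Hsph1 had a higher mean at CT2 than at CT22 and CT6 in both genotypes. At CT2 the 4 libraries of Hspa1b lay between 3.41 and 8.90 FPKM, above those of CT22 (1.96 to 3.07) and of CT6 (0.626 to 1.94). In all, 5 of the 10 genes had such a mean in WT, against 36.6% of all genes tested, and 5 of 10 in ΔRRE, against 44.4%, so the counts were near the background. They include Hspe1 in WT, where the mean at CT2 was 1.01 times that of CT6. For Hspa8 it was 1.60 times the mean of CT22 in WT and 1.86 times in ΔRRE. A wave with a period of 12 h, shared by the genotypes and added to their 24-h waves, was called for 5 genes, against 2.48% of all genes tested. The called genes were Hspa1b (amplitude 1.49 ± 0.19 on the log2 scale, adjusted p of 0.00421 in limma), Hsph1 (0.88 ± 0.14), Hspa8 (0.64 ± 0.10), Hsp90aa1 (0.61 ± 0.12) and Dnajb1 (0.43 ± 0.08). Its crests fell between CT2.6 and CT4.6, and 12 h later. Hspb1, with a large 24-h wave, had a 12-h amplitude of 0.14 ± 0.15 (adjusted p of 0.853 in limma). With 6 time points, a second daily rise and an evening peak narrower than a cosine cannot be told apart in this term. When the 4 libraries of CT2, CT10 or CT22 were left out, 0 of the 10 genes were called. Of all genes tested only 31, 1 and 1 were then called, in place of 279, so these counts say little of the 10 genes. Without ΔRRE CT22 replicate 1, the adjusted p of Hsp90aa1 was 0.0531 in limma.

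In the other cytosolic chaperone lists between 12.5% and 31.2% of the tested genes were called. Among the other genes of the cytosolic HSP70 system, 20 of 22 were tested and 4 were called with the waves of both genotypes together, or 20%, beside 18.7% of all genes tested. These were Hspa1a (amplitude 1.59 ± 0.33, peak CT16.1) and the J-domain genes Dnajb2 (0.37 ± 0.08, CT20.1), Dnajb6 (0.24 ± 0.05, CT13.5) and Dnaja2 (0.19 ± 0.04, CT13.6). Bag3, a nucleotide exchange factor of HSP70, was not called in this test (adjusted p of 0.0799 in limma). With the 12-h wave Bag3, Hspa1a and Dnajb6 were called, which makes 3 of 20 beside 2.48% of all genes tested. Since reads of Hspa1a and Hspa1b may have been divided between them, the calls of Hspa1a may not be separate from those of Hspa1b. Of the 16 HSP90 co-chaperone genes, 5 were called, or 31.2% beside the same 18.7%, all peaking between CT12 and CT20. They were Stip1, the adaptor between HSP70 and HSP90 (amplitude 0.57 ± 0.11, peak CT19.1), Fkbp4 (0.54 ± 0.09, CT19.7), Cacybp (0.37 ± 0.07, CT18.0), and Ahsa1 and Ahsa2, of the family that activates the HSP90 ATPase (0.29 ± 0.06 at CT18.1 and 0.28 ± 0.06 at CT16.9). The cytosolic chaperonin TRiC had 1 called subunit of 8, or 12.5%, Cct7 (0.19 ± 0.05). The other small heat shock proteins had 1 of 4 tested, or 25%, Hspb8 (0.31 ± 0.07, CT14.9).

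Besides Hspe1, the lists of the mitochondria and the endoplasmic reticulum held 2 genes called with the 24-h waves. Of 10 other mitochondrial chaperone and protease genes, 2 were called, a share near the background, and neither peaked between CT12 and CT20. Clpx, the unfoldase of a mitochondrial protease, had an amplitude of 1.47 ± 0.08 with its peak at CT0.4, and Grpel1 of 0.17 ± 0.03 at CT11.1. Of the 14 chaperone genes of the endoplasmic reticulum, 0 were called with the 24-h waves, against 18.7% of all genes tested. Hspa5, their HSP70, varied between 104 and 732 FPKM, with an amplitude of 0.58 ± 0.19 and an adjusted p of 0.214 in limma. For Dnajb9 and Manf, 2 of the 14, the 12-h wave was called, against 2.48% of all genes tested.

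**Figure D3:**
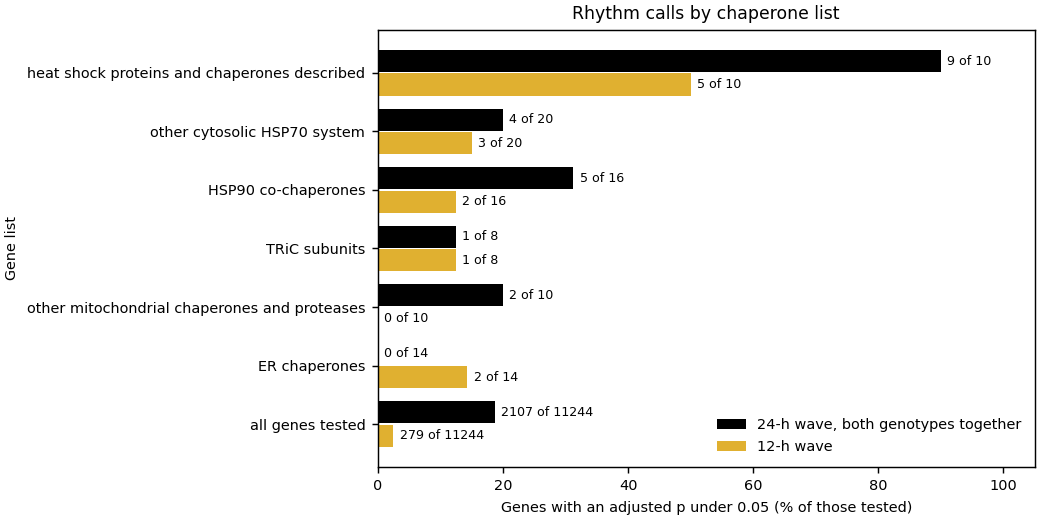
Genes with an adjusted p under 0.05 as a percentage of those tested (horizontal axis from 0), for the 24-h waves of both genotypes together (black) and the 12-h wave (yellow), in each chaperone list and in all genes tested; counts stand beside the bars. The described genes have 9 of 10 and 5 of 10 called, and the endoplasmic reticulum list 0 of 14 and 2 of 14.

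The genes of the main heat shock factors passed no test of rhythm. Hsf1 was between 3.89 and 7.59 FPKM in all libraries, with an adjusted p of 0.804 in limma for the 24-h waves, and Hsf2 was between 8.22 and 14.5 (adjusted p of 0.776 in limma). Among the 6 tested genes of heat shock factors and their regulators, 2 were called, or 33.3% beside 18.7% of all genes tested. These were Hsf4 (amplitude 0.39 ± 0.09, peak CT13.7) and Ier5 (0.38 ± 0.13, peak CT21.2). The cold-inducible genes ran in another phase. Cirbp was highest at CT10 in both genotypes, at 29.2 and 22.5 FPKM in WT and 29.9 and 31.5 in ΔRRE, and lowest at CT18, at 9.63 and 6.01 in WT and 7.8 and 10.3 in ΔRRE. Its shared wave had an amplitude of 0.83 ± 0.11 with its peak at CT6.0 (adjusted p of 0.000387 in limma). Rbm3, the other cold-inducible gene, peaked at CT11.7 with an amplitude of 0.48 ± 0.08.

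No difference in rhythm between the genotypes passed the adjusted test for any of these genes, and Hspd1 differed before adjustment. The test of the difference between the waves called 0 of the 10 genes, against 0.00889% of all genes tested, which is the single gene Arntl (adjusted p of 0.0463 in limma). At an unadjusted p under 0.05 it found 1 of the 10, Hspd1, against 2.84% of all genes tested. The wave of Hspd1 had an amplitude of 0.04 ± 0.06 in WT and 0.19 ± 0.05 in ΔRRE, and its adjusted p was 0.9999 in limma. An exact permutation test of the size of that difference, over the 23328 ways to divide the 4 libraries of every time into 2 and 2, regardless of which set is named ΔRRE, gave a p of 0.00622 that is not adjusted for the 10 genes examined. For the other 9 genes the exact permutation p was between 0.236 and 0.884. Hspa1b had an amplitude of 1.81 ± 0.43 in WT and 1.84 ± 0.53 in ΔRRE, with peaks at CT15.9 and CT17.5. The peak of ΔRRE minus that of WT was 1.54 h with a standard error of 1.43 h for Hspa1b, and 0.17 h with a standard error of 0.92 h for Hspb1. It exceeded its standard error for Hspa1b only.

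In mean level no difference between the genotypes passed the test. With time point as a factor, 0 of the 10 genes differed between ΔRRE and WT, against 0% of all genes tested, and at an unadjusted p under 0.05 limma gave 0 of the 10 against 8.91% of all genes tested. The difference in log2(FPKM + 0.1), ΔRRE minus WT, was -0.30 for Hsph1 (95% interval -0.71 to 0.12), -0.27 for Hspa1b (-0.87 to 0.32), -0.15 for Dnajb1 (-0.39 to 0.09) and -0.09 for Hspa8 (-0.36 to 0.17). For Hspe1 it was -0.003 (-0.13 to 0.12), for Hspd1 0.03 (-0.08 to 0.13) and for Hsp90ab1 0.07 (-0.09 to 0.22). The intervals of the mitochondrial genes thus excluded a change of the size that those of Hspa1b and Hsph1 still allow. In all, 8 of the 10 were lower and 2 higher in ΔRRE, beside 3882 lower and 7362 higher of all genes tested, with a median of -0.08 beside 0.04. Of the 8, Hsp90aa1 and Hspe1 lay within 0.01 of 0, and each changed sign in 11 of the 24 fits that left out 1 library. Exact permutation p-values ranged from 0.191 to 0.967. Without ΔRRE CT10 replicate 1 and ΔRRE CT14 replicate 1 together, the difference of Hspa1b was -0.0033 and that of Hspa8 -0.0094. Rescaling the libraries by the median of ratios moved the median of all genes to -0.0017 and the difference of Hspd1 from 0.03 to -0.01.

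**Figure D4:**
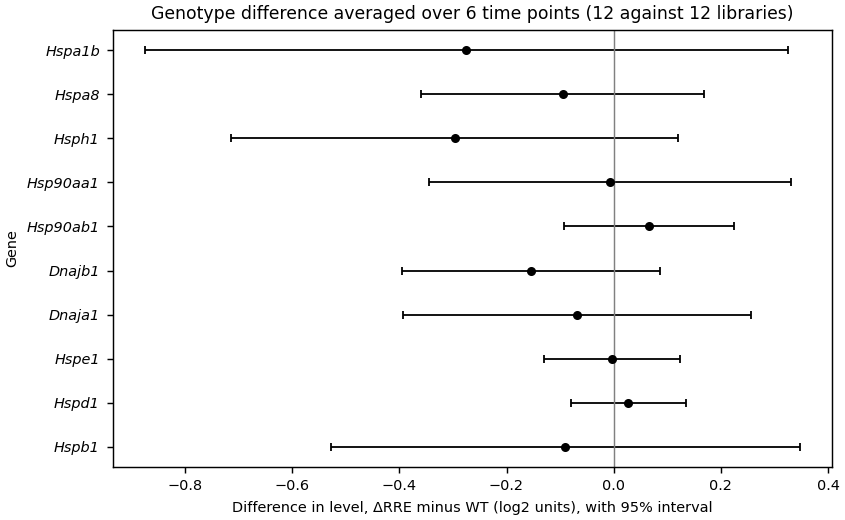
Difference in level between ΔRRE and WT in log2 units (horizontal axis, ΔRRE minus WT) for each gene, averaged over the 6 time points, with points for the estimate and bars for the 95% interval from limma (12 against 12 libraries). Every interval includes 0, from the narrow ones of Hspd1 and Hspe1 to that of Hspa1b, which runs from -0.87 to 0.32.

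The 2 libraries of a genotype and time point often differed in the same direction for most of the cytosolic genes. Leaving out Hspe1 and Hspd1, the other 8 genes were all on the same side in 5 of the 12 pairs of libraries. At least 7 of the 8 were in 9 of the 12. These counts have no share over all genes beside them and are a description. The widest gap was in ΔRRE at CT14, where Hspa1b was at 10.9 FPKM in replicate 1 and 69.7 in replicate 2, and all 10 genes were higher in replicate 2. In WT at CT14 all 10 genes were lower in replicate 2, and Hspb1 was at 73.1 and 19.2 FPKM. Cirbp was on the opposite side from Hspa1b in 9 of the 12 pairs, for example at 29.7 and 14.6 FPKM in WT at CT2, where Hspa1b was at 3.41 and 7.51. Some of these differences of Cirbp were small, with 0.02 log2 units in ΔRRE at CT6 and -0.14 in ΔRRE at CT22. Over the 24 libraries the correlation of log2 values with Hspa1b was 0.95 for Hsph1, 0.92 for Hspa8, 0.91 for Dnajb1 and 0.57 for Hspb1 (Pearson's r, which time of day and library share alike).

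**Figure D5:**
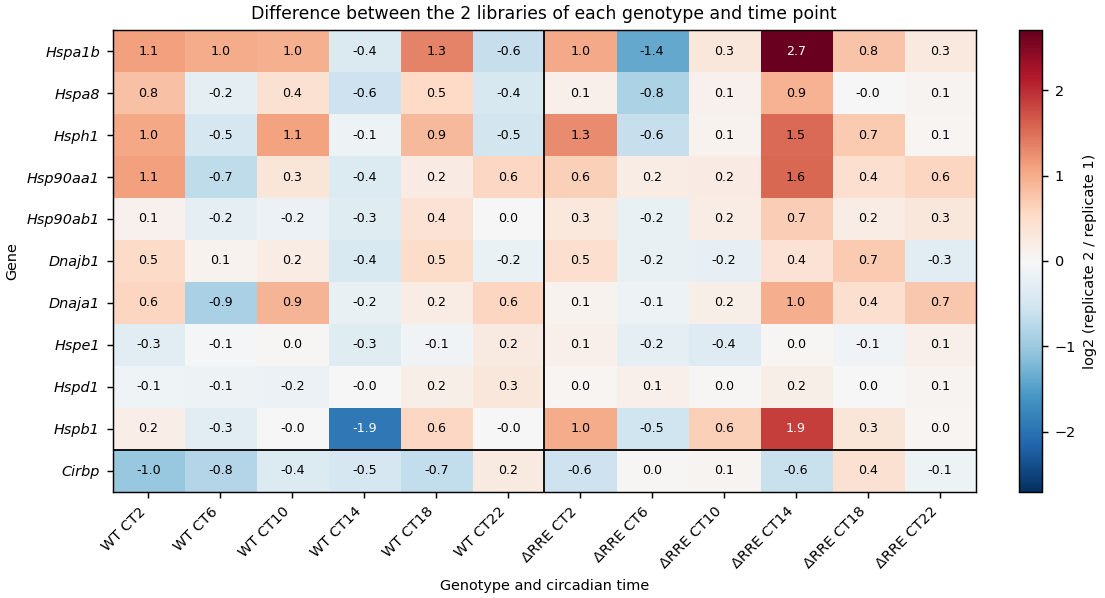
Difference between replicate 2 and replicate 1, in log2 units of FPKM + 0.1 (colour, red where replicate 2 is higher and blue where it is lower), for each gene (rows) in each genotype and time point (columns), with Cirbp in the last row. ΔRRE at CT14 is red for all 10 genes, up to 2.67 for Hspa1b, and Cirbp is blue there.

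ΔRRE CT14 replicate 1, in which all 10 genes were below replicate 2, stood apart in other genes too, as did ΔRRE CT10 replicate 1. In ΔRRE CT14 replicate 1 Hspa1b was below both WT libraries of CT14, whereas Dnaja1, at 142 FPKM, was above both. Its acute-phase genes summed to 16749 FPKM, the highest of all libraries, beside a median of 5918, and Saa1, which encodes a serum amyloid protein, was at 1069 FPKM there and at 63.2 in replicate 2. Its blood cell markers summed to 4463 FPKM, also the highest, beside a median of 1089, and Hbb-bs was the most abundant of these 9 markers. Over the libraries 6 of the 9 averaged at least 1 FPKM and 0 averaged 0. In ΔRRE CT10 replicate 1 the acute-phase genes summed to 14016 FPKM, with Saa1 at 916, and the blood cell markers to 4325 FPKM, both the second highest, while its 10 chaperone genes summed to 879 FPKM beside 916.5 in replicate 2. The median sum of the blood cell markers was 844 FPKM in WT and 1229 in ΔRRE, and that of the acute-phase genes was 5326 and 7057. Of the 10 acute-phase genes 1 was called with the 24-h waves, or 10% beside 18.7% of all genes tested. This was Apcs, peaking at CT8.3. Of the 7 immediate-early genes tested 4 were called, or 57.1% beside the same 18.7%. These were Egr1, Zfp36, Junb and Dusp1, peaking at CT3.7, CT7.1, CT6.6 and CT18.5. Without ΔRRE CT14 replicate 1, 9 of the 10 genes were still called with the waves of both genotypes together, and Hspa1b had an amplitude of 1.80 and an adjusted p of 0.026 in limma. In ΔRRE alone 1 gene was then called, Hspb1, in place of 2. Of all genes tested 1882 were then called with both waves, in place of 2107, and 298 in ΔRRE alone, in place of 514. Without ΔRRE CT10 replicate 1, 9 of the 10 genes were called with both waves, and 2 in ΔRRE alone. The counts over all genes tested were then 1854 and 363. Without both of these libraries, 9 were called with both waves, Hspb1 alone in ΔRRE and the same count of 5 with the 12-h wave, and Hspa1b had an amplitude of 1.80 and an adjusted p of 0.0311 in limma. Kupffer cell markers summed to between 13.4 and 97.1 FPKM and sinusoidal endothelial markers to between 27.9 and 55.1. Stellate cell markers summed to between 49.5 and 132 FPKM and cholangiocyte markers to between 11.8 and 44.1. No list had a marker at 0 in its mean over the libraries. However, only 5 of 6 stellate cell and 3 of 5 cholangiocyte markers averaged at least 1 FPKM. Spp1 was the most abundant cholangiocyte marker, at a mean of 23.5 FPKM. The part of these cell types and of the acute-phase genes in the results was not tested.

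Likeness was searched outside all the gene lists used here, markers included, and without gene models named Gm or Rik. The genes whose course over the 24 libraries was most like that of Hspa1b were Rcan1 (r = 0.90), Txlna (0.89), Ddit3 (0.88), Rbm14 (0.88) and Top1 (0.88). The mean of the 10 standardised genes was most like Rcan1 (r = 0.93), Pycrl (0.89), Serp1 (0.89), Ywhag (0.89) and Thrsp (0.88). Rcan1, which encodes a regulator of calcineurin, came first in both lists and had an amplitude of 0.99 with its peak at CT16.4. These are descriptions over libraries that share their time points, and they say nothing of shared control.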

How the data were processed

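The authors deposited 1 table of FPKM per gene for each of the 24 libraries. The submitters' processing notes name Trimmomatic 0.39, HISAT2 2.1.0, StringTie 1.3.5 and the build mm10. Directional libraries of poly(A) RNA were sequenced from both ends. All 1313592 values equal those of the deposited table of the whole series, which was not used. No counts were used here, so the depth behind a value is unknown and no counting error is given. The methods of the study give n = 2 for the livers of each time point, without saying more of the animals. The labels only number the libraries as replicates 1 and 2. P-values measure the spread between these samples. In the tests of 24-h waves that spread also holds the departure of the time-point means from such a wave.

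From the deposited FPKM, log2(FPKM + 0.1) of the 11244 genes that averaged 1 FPKM or more was modelled by limma 3.58.1 (R 4.3.3) using a trended prior, and p-values were adjusted by the Benjamini-Hochberg method. The fits were tested on simulated data. Fold changes on this scale understate changes of low genes. BIO_CYCLE, used in the study, was not run. The described genes, the gene lists and the tests were chosen with earlier results of these data known. Named were the 10 genes, up to 4 genes of each other list by the smallest p of the 24-h waves, all genes of the heat shock factor, HSP70 and cold-inducible lists, other called chaperone genes where a count was 5 or fewer, and the 5 genes most like Hspa1b and the mean profile. Hspa5 and the marker genes given were added after their values were seen. Gene positions are from GENCODE M21 (GRCm38) and promoters from RefSeq (GRCm38.p6). Alternatives were other constants, filters and scalings, time as a factor, a replicate block, and leaving out each library or time point; leaving out ΔRRE CT10 and CT14 replicate 1 together was chosen after seeing the data.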

Additional observations from a re-analysis of the deposited data

How the results depend on the processing

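The count of genes called with the 24-h waves of both genotypes together was 9 and stayed between 7 and 10 under the other constants, filters, scalings and models, and between 8 and 10 when 1 library was left out; it was 5 without CT6 and 2 without CT18. No difference between the genotypes was called for any of the 10 genes under any alternative run.

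In WT alone the 4 called genes became 0 without a filter on low values, 2 with 1 spread shared by the genotypes, 8 by the criteria of the study's methods, 1 without CT6 and 2 without CT10, CT14 or CT18, and between 2 and 5 without 1 library. In ΔRRE alone the 2 called genes became 4 with 1 FPKM added, 0 without a filter, 4 at a mean of at least 5 FPKM, 1 with a prior without trend, 5 with time point as a factor, 8 with a shared spread, 8 by the study's criteria, 5 without CT2 or CT22, 1 without CT6 or CT14 and 0 without CT10 or CT18, and between 1 and 5 without 1 library. For the 12-h wave the 5 called genes became 3 without a filter, 0 without CT2, CT10 or CT22 and 3 without CT6 or CT14, and between 4 and 6 without 1 library.

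Over all genes tested, the 1157 called in WT became 519 without a filter, 361 with time as a factor, 4156 by the study's criteria, and 625, 731, 524, 567, 711 and 671 without CT2, CT6, CT10, CT14, CT18 and CT22 (740 to 1019 without 1 library). The 514 in ΔRRE became 197 without a filter, 957 with a shared spread, 3985 by the study's criteria, and 257, 142 and 239 without CT10, CT14 and CT18 (298 to 554 without 1 library). The 2107 called with both waves became 1087 with time as a factor, 3437 with 1 wave for both genotypes, and 1173, 1151 and 1217 without CT10, CT14 and CT18. For the 12-h wave 279 became 95 without a filter and 31, 71, 1, 53, 61 and 1 without CT2, CT6, CT10, CT14, CT18 and CT22 (142 to 363 without 1 library). For the difference in rhythm 1 gene became 4 with time as a factor and 0 with 0.01 FPKM added, no filter, a mean of at least 5 FPKM, a prior without trend or without CT2, CT6, CT18 or CT22 (0 to 1 without 1 library). For the difference in level 0 became 1 without CT6 (0 to 1 without 1 library). The causes were not tested.

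Without ΔRRE CT10 replicate 1 and ΔRRE CT14 replicate 1 together, chosen after seeing the data, 1 of the 10 genes was called in ΔRRE alone and 174 of all genes, 114 of all genes were called with the 12-h wave and 0 with a different rhythm, and the level difference was 0.121 for Hsp90aa1 and 0.0904 for Hspb1.

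Differences in level near 0 changed sign, none of them called. Hspd1 was at -0.0127 after rescaling, -0.0037 without CT18 and -0.0054 without CT22. Hspe1 was at 0.0080 without CT2, 0.0289 without CT6 and 0.0205 without CT10, Hspb1 at 0.0072 without CT2, Hsp90aa1 at 0.0584 without CT6, 0.0080 without CT10 and 0.0297 without CT14, and Dnaja1 at 0.0104 without CT6 and 0.0043 without CT10. Without 1 library the ranges were -0.17 to 0.01 for Dnaja1, -0.088 to 0.095 for Hsp90aa1 and -0.179 to 0.0472 for Hspb1. They were -0.00072 to 0.046 for Hspd1 and -0.0303 to 0.0249 for Hspe1. The other genes kept their sign. Their ranges were -0.419 to -0.105 for Hspa1b, -0.155 to -0.0382 for Hspa8 and -0.395 to -0.208 for Hsph1. Dnajb1 lay between -0.217 and -0.0996, and Hsp90ab1 between 0.0247 and 0.103.

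Whether the replicate numbers pair the libraries across groups was not settled. The correlation of the deviations of replicate 1 between groups had a median of 0.07 and a range from -0.14 to 0.30. It was above 0.1 in 20 of 66 pairs. With a replicate block, 10 genes in place of 9 were called with both waves, 4 in place of 2 in ΔRRE, 4 in WT and 5 with the 12-h wave. The 1 gene with a different rhythm was no longer called (0). Over all genes tested, 2213 in place of 2107 were then called with both waves. The counts were 556 in place of 514 in ΔRRE, 1189 in place of 1157 in WT and 394 in place of 279 with the 12-h wave. Depth is unknown, so no limit from counting is given.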
